A study of Mus musculus with 4 samples.

Results

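The interleukins and their receptors were examined in colorectal polyps and non-polyp tissue of germ-free mice that lack Dectin-1 (Clec7a-/-, KO) and of germ-free wild-type (WT) mice. Every annotated mouse gene whose symbol is Il followed by a digit was taken, apart from 13 genes. These were Il10rb and genes of the IL-22, IL-18, IL-23, IL-33 and IL-25 axes. Other genes of these axes, such as Il18rap and Il12rb1, were kept. This left 70 of 83 Il-named genes among 54621 gene names in all. These 70 comprised 32 ligands and antagonists, 34 receptor chains and 4 genes on neither list (Il16, Il34, Il4i1 and the antisense RNA Il1bos). Il16 and Il34 also encode ligands but were not counted among the 32. All mice received the carcinogen azoxymethane and 3 cycles of 1% dextran sulphate sodium in drinking water, which injures the colonic epithelium. Tissue was taken at week 36, counted from azoxymethane. RNA-seq was run on 4 libraries, 1 for each of KO polyps, WT polyps, KO non-polyp tissue and WT non-polyp tissue, each made from tissue pooled over several mice. With 1 library per group there was no replicate error, so no test was possible and every difference below is between 2 libraries. The KO line had been made germ-free through caesarean birth and germ-free WT foster mothers, whereas the WT mice were bought germ-free, so genotype and origin of the animals cannot be told apart. Strain, age and sex are not given in the labels.

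Interleukins are secreted proteins through which leukocytes, epithelium and stroma signal to each other. Their receptors are built from a limited set of chains: a private chain commonly binds 1 ligand, while shared chains, such as the common gamma chain encoded by Il2rg or the gp130 chain encoded by Il6st, pass the signal to JAK kinases and STAT factors. Receptors of the IL-1 family signal instead through MyD88 and IRAK kinases, and those of the IL-17 family through the adaptor encoded by Traf3ip2. In the colon, IL-1, IL-6 and IL-11 are known for their part in inflammation, repair and tumour growth.

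Levels are given in TPM, a transcript abundance scaled for gene length and library size, and differences as log2 ratios of TPM + 1, which understate the change of genes near 0. A gene was called higher or lower where this ratio passed 1 or -1. The deleted gene itself behaved as labelled, with Clec7a at 0.102 TPM in KO and 31.2 TPM in WT polyps, and at 0.0766 TPM in KO and 5.97 TPM in WT non-polyp tissue. Read totals are not part of the values used here, so the depth behind a TPM value is unknown. All 7 epithelial markers, such as Epcam and Vil1, were present in every library, with sums between 5794 and 7590 TPM. The WT polyp library stood apart in squamous epithelial markers, with a sum of 649 TPM against 2.13 to 9.11 TPM in the other 3. The KO polyp library stood apart in B cell markers, with a sum of 1256 TPM against 35.5 to 57.9 TPM in the other 3. The labels call this KO tissue a polyp. The study states in one place that germ-free KO mice, unlike germ-free WT mice, developed no polyps, and elsewhere it describes polyps of germ-free KO mice. The name polyp is therefore used for this KO tissue as a label only. Whether this KO tissue held lymphoid follicles, or the WT polyps squamous tissue, was not tested. Between 16745 and 17357 gene names reached 1 TPM per library. Over 10854 genes at 5 TPM or more, the median log2 ratio was -0.10 for KO against WT polyps, 0.03 for KO against WT non-polyp tissue, 0.20 for WT polyps against WT non-polyp tissue and 0.02 for KO polyps against KO non-polyp tissue.

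The summed level of the 70 genes was 954 TPM in KO and 530 TPM in WT polyps, and it was 555 TPM in KO and 527 TPM in WT non-polyp tissue. KO polyps thus held the highest sum, and the other 3 libraries lay close together. A level of 10 TPM was reached by 21 of the 70 genes in KO and 12 in WT polyps, and by 13 in KO and 11 in WT non-polyp tissue. Between 14 and 20 genes per library were listed at 0, most of them ligands.

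**Figure D1:**
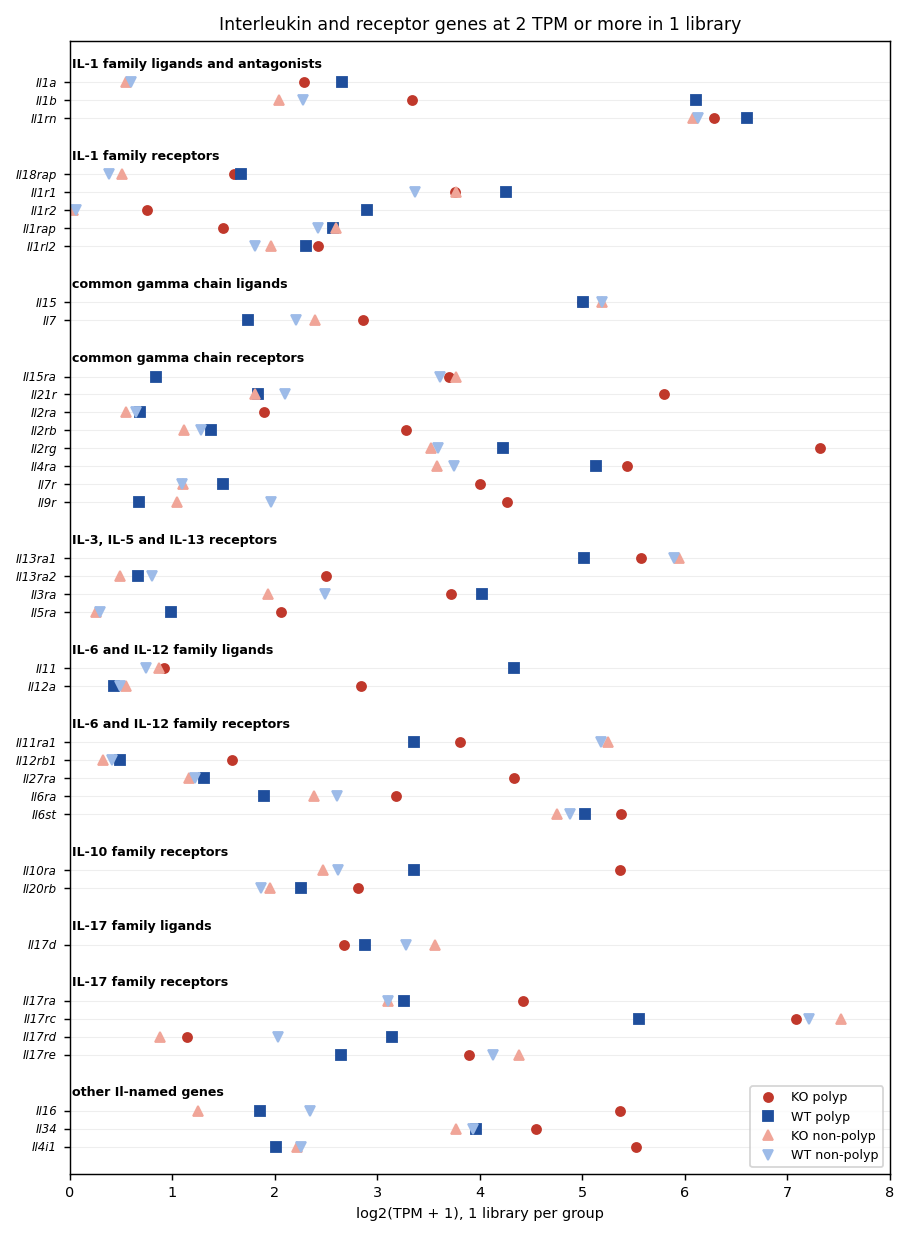
Level of each interleukin or receptor gene that reached 2 TPM in 1 library, as log2(TPM + 1) on the horizontal axis, grouped by family, with 1 point per library. The KO polyp point of Il2rg (159 TPM), Il21r (54.6 TPM) and Il9r (18.2 TPM) lies to the right of the other 3, and the WT polyp point of Il1b (68.1 TPM) and Il11 (19.2 TPM) does so in the IL-1 and IL-6 families.

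Polyps of the 2 genotypes were compared first. Of the 8 common gamma chain receptors 7 were higher in KO polyps, such as Il21r (21.2-fold) and Il2rg (8.92-fold), and 5 of 32 ligands and antagonists were lower, such as Il11 (21.5-fold) and Il1b (7.45-fold). Of the 70 genes, 21 were called higher in KO polyps, where 5.06% of all 54621 gene names were, and 8 were called lower, where 4.29% of all names were. Among protein-coding names these shares were 8.51% and 7.88%. The median log2 ratio was 0.13 over the 70 genes and 0.00 over all names. Many of the 70 genes and most names are near 0, so the same counts were also made for names at a mean of 1 TPM or more, a limit chosen after seeing the data: 19 of 38 genes were then higher, against 14% of such names, and 5 of 38 were lower, against 11.2%. The median was 0.83 over these 38 genes and -0.05 over such names. This mean includes the polyp libraries compared, so the limit is not independent of the difference counted. Il12a, Il13ra2, Il2ra and Il5ra reached it only through KO polyps, and Il1r2 only through WT polyps. With a pseudocount of 5 TPM in place of 1 TPM, 12 of the 21 higher calls remained, the lost ones being Il7, Il2ra, Il5ra, Il6ra, Il12rb1, Il13ra2, Il17f, Il17ra and Il17re, and 4 of the 8 lower calls remained, the lost ones being Il6, Il1f8, Il1f9 and Il1rap.

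Receptors and ligands were unevenly divided. Of 34 receptor chains, 16 were higher and 3 lower in KO polyps (median log2 ratio 0.56). Of 32 ligands and antagonists 3 were higher and 5 lower (median 0.00). However, 29 of the 34 receptor chains reached 1 TPM in at least 1 library, but only 13 of the 32 ligands and antagonists did. A gene below 1 TPM in both libraries cannot pass the threshold, so these counts and medians are not on an equal footing. Of the ligands called, Il17f among the higher and Il6, Il1f8 and Il1f9 among the lower were below 2 TPM in each polyp library. The summed level of the 34 receptor chains was 701 TPM in KO and 272 TPM in WT polyps. That of the 32 ligands and antagonists was 146 TPM in KO and 237 TPM in WT polyps. These counts and sums leave out the ligands Il16 and Il34. Il16 was at 40.4 TPM in KO and 2.63 TPM in WT polyps and was called higher. Il34 was at 22.4 TPM in KO and 14.6 TPM in WT polyps. For 15 of the 21 higher genes the KO polyp library stood past the threshold above each of the other 3 libraries. For 3 others (Il15ra, Il17rc and Il17re) it was the WT polyp library that stood below each of the other 3, and for 7 of the 8 lower genes (Il11, Il17rd, Il1b, Il1f8, Il1f9, Il1r2 and Il6) the WT polyp library stood above each of the other 3. Neither non-polyp library stood apart in this way for any of the 70 genes. The same counts were not made over all gene names, so whether this pattern is particular to these 70 genes is unknown.

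**Figure D2:**
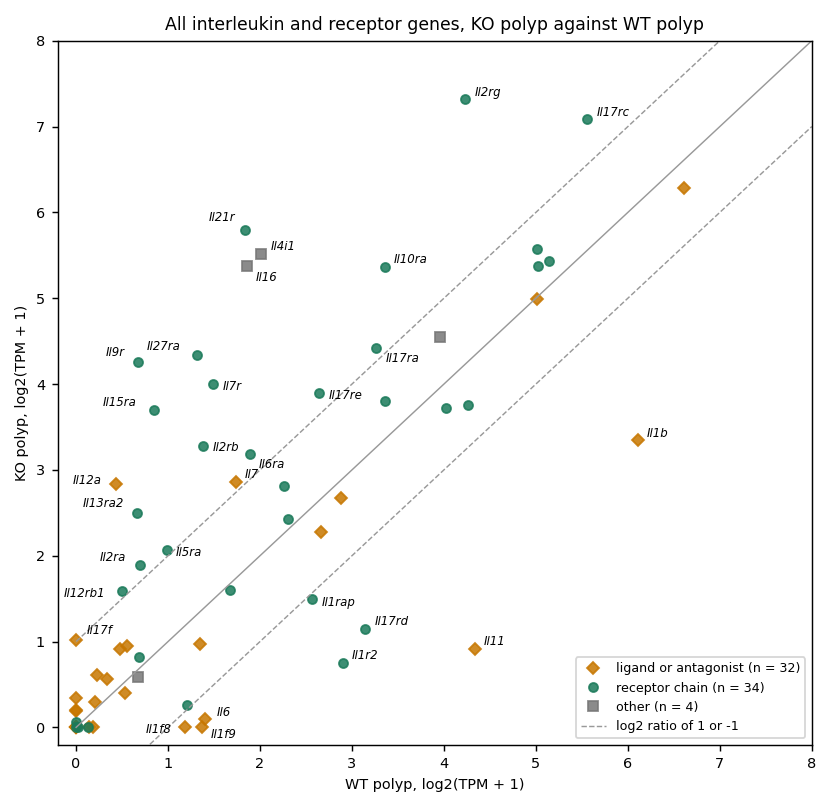
The 70 genes in KO polyps (vertical axis) against WT polyps (horizontal axis), both as log2(TPM + 1), with 1 point per gene coloured by kind and dashed lines at a log2 ratio of 1 and -1. Points above the upper line are mostly receptor chains (16 of 21), and of the 8 below the lower line 5 are ligands and 3 are receptor chains. The ligands Il6, Il1f8 and Il1f9 below the lower line are under 2 TPM in each polyp library.

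The sequences before the start sites of genes that moved in opposite directions are shown so that the matches counted here can be seen in place. RefSeq start-site windows (build GRCm38.p6) were found for 57 of the 70 genes, and the 250 bases before the start site nearest to the deposited one were searched on both strands for an AP-1 site (TGANTCA), a STAT site (TTCNNNGAA), a cyclic AMP response element (TGACGTCA) and the NF-kB consensus. An AP-1 site was present in 10 of 57 windows (17.5%), against 6.75% of all 32851 windows, a STAT site in 7 of 57 (12.3%), against 7.02%, and an NF-kB consensus in 3 of 57 (5.26%), against 3.90%. No window of the 57 held the cyclic AMP response element, which 1.55% of all windows held. The 32851 windows belong to 27025 genes, some with several windows, whereas 1 window was taken for each of the 57. The shares are therefore not of the same unit. Il6, Il1b and Il11 were lower in KO polyps and Il21r, Il2ra and Il13ra2 were higher, and their windows are printed 5′ to 3′ on the gene's own strand, with matches in capitals.
Il6 (chr5:30012864-30013113, plus strand): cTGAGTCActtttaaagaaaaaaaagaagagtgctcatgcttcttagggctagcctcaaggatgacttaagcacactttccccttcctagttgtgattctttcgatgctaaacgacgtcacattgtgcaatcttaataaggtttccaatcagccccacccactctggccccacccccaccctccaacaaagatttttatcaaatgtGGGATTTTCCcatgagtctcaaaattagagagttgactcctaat
Il1b (chr2:129371140-129371389, minus strand): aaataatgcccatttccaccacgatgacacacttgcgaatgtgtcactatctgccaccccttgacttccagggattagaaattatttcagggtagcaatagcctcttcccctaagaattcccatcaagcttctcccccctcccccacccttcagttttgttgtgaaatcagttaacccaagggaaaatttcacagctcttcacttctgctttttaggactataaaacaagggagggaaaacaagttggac
Il11 (chr7:4782858-4783107, minus strand): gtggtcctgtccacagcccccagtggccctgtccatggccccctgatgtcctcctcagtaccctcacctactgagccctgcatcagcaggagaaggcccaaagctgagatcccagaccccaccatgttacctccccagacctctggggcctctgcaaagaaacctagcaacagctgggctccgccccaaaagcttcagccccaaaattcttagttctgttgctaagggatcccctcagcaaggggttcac
Il21r (chr7:125603179-125603428, plus strand): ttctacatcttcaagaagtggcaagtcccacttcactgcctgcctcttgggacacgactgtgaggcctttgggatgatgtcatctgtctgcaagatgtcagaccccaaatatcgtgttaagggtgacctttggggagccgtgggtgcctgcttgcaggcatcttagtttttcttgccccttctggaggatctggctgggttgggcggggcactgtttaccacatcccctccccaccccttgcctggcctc
Il2ra (chr2:11642542-11642791, plus strand): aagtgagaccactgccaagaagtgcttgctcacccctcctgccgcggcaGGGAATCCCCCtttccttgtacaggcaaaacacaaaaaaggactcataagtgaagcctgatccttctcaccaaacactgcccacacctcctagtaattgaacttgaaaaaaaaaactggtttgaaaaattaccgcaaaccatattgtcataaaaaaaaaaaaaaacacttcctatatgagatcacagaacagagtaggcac
Il13ra2 (chrX:147429193-147429442, minus strand): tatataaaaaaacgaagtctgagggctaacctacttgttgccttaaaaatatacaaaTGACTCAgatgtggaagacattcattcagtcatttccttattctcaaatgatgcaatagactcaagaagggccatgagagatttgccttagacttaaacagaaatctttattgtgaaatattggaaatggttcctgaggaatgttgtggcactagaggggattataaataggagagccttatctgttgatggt
In Il6 the capitals mark an AP-1 site 249 bases and an NF-kB consensus 44 bases before the start site, in Il2ra 2 overlapping NF-kB matches that begin 201 and 200 bases before it, and in Il13ra2 an AP-1 site 193 bases before it. Il1b, Il11 and Il21r held none of these letters in the 250 bases. The windows of Il2ra and Il11 end 15 and 2 bases from the gene start in the deposited tables, and the other 4 end at it. Matches fell in each class: an AP-1 site stood in 3 of 15 windows of genes higher in KO polyps (Il13ra2, Il16 and Il5ra), in 2 of 8 windows of genes lower there (Il1f8 and Il6) and in 5 of 34 windows of the rest. A STAT site stood in 1 of 15 (Il7r), in 2 of 8 (Il1f9 and Il1r2) and in 4 of 34 windows of the same classes, and an NF-kB consensus in 1 of 15 (Il2ra), in 1 of 8 (Il6) and in 1 of 34 (Il19). The Il16 and Il1r2 windows named here belong to start sites 10187 and 12014 bases from the deposited gene starts, and 8 of the 57 windows lay more than 1000 bases away. Without these 8, an AP-1 site stood in 9 of 49 windows, among them 2 of 12 of higher and 2 of 7 of lower genes. A STAT site then stood in 1 of 12 windows of higher and 1 of 7 windows of lower genes.

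The common gamma chain receptors, which serve IL-2, IL-4, IL-7, IL-9, IL-15 and IL-21, moved most as a group: 7 of 8 were higher in KO than in WT polyps and none was lower (median log2 ratio 2.68). Their summed level was 312 TPM in KO and 60.0 TPM in WT polyps, and it was 40.5 TPM in KO and 44.1 TPM in WT non-polyp tissue. Il2rg, the shared chain itself (chrX:101264378-101268255, minus strand), was at 159 TPM in KO and 17.8 TPM in WT polyps, and at 10.5 TPM in KO and 11.1 TPM in WT non-polyp tissue, a log2 ratio of 3.09 between the polyps. The annotated gene Gm20489 shares 728 exonic bases with it on the same strand and was listed at 89.5 TPM in KO and 10.7 TPM in WT polyps, so reads of these genes cannot be kept apart with certainty.

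Il21r, the receptor for the T cell product IL-21, was at 54.6 TPM in KO and 2.57 TPM in WT polyps, and at 2.51 TPM in KO and 3.29 TPM in WT non-polyp tissue. Only the KO polyp library stood out, 21.2-fold above WT polyps. Il4ra, the chain for IL-4 and IL-13, lies next to it on chromosome 7, and the pair spans 81.5 kb. In contrast to its neighbour, Il4ra was at 42.4 TPM in KO and 34.2 TPM in WT polyps, and at 11.0 TPM in KO and 12.5 TPM in WT non-polyp tissue. It was thus the member of this group that did not pass the threshold between the genotypes (0.30), and it was higher in polyps than in non-polyp tissue of each genotype.

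Il9r, which binds the mast cell and T cell growth factor IL-9, was at 18.2 TPM in KO and 0.600 TPM in WT polyps, and at 1.06 TPM in KO and 2.91 TPM in WT non-polyp tissue. WT polyps therefore had the lowest level of the 4 libraries and KO polyps the highest, 30.3-fold apart. Il7r, the receptor chain for the lymphocyte survival factor IL-7, was at 15.0 TPM in KO and 1.81 TPM in WT polyps, and at 1.15 TPM in KO and 1.14 TPM in WT non-polyp tissue. Il2rb, the signalling chain for IL-2 and IL-15, was at 8.74 TPM in KO and 1.61 TPM in WT polyps, and at 1.16 TPM in KO and 1.43 TPM in WT non-polyp tissue. Both stood out in KO polyps as Il2rg did, with WT polyps near the non-polyp libraries. Il2ra, the high-affinity IL-2 chain of activated and regulatory T cells, was at 2.72 TPM in KO and at 0.614 TPM in WT polyps, with 0.459 TPM in KO and 0.567 TPM in WT non-polyp tissue.

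Il15ra, which presents IL-15 to neighbouring cells, had a different order. It was at 12.0 TPM in KO and 0.793 TPM in WT polyps, and at 12.6 TPM in KO and 11.3 TPM in WT non-polyp tissue, so that WT polyps alone were low (log2 ratio 2.86 between the polyps and -2.77 for WT polyps against WT non-polyp tissue). With mean read coverage, scaled to a common total, in place of TPM, these log2 ratios shrank to 1.08 and -1.21. Its neighbour Il2ra, which lies with it in a stretch of 91.5 kb on chromosome 2, did not share this order. Of the 6 ligands of these receptors, Il15 was level across libraries, at 30.9 TPM in KO and 31.2 TPM in WT polyps, and at 35.7 TPM in KO and 35.6 TPM in WT non-polyp tissue. Il7, made by stroma and epithelium, was the only one of the 6 past the threshold, at 6.25 TPM in KO and 2.33 TPM in WT polyps, and at 4.24 TPM in KO and 3.61 TPM in WT non-polyp tissue. Il2, Il4, Il9 and Il21, products of T cells and other lymphocytes, were at 0.444 TPM or less in every library, and Il9 was listed at 0 in all 4. In KO polyps, the high level of Il21r thus stood beside 0.270 TPM of Il21, and that of Il9r beside an Il9 listed at 0.

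Several marker lists of lymphocytes and other cells were also higher in KO polyps, but not all. Of 7 B cell markers all 7 were higher in KO polyps, with a summed level of 1256 TPM in KO and 35.5 TPM in WT polyps, and of 43.9 TPM in KO and 57.9 TPM in WT non-polyp tissue. All 8 T cell markers were higher, with sums of 118 TPM in KO and 28.7 TPM in WT polyps, and of 11.2 TPM in KO and 12.5 TPM in WT non-polyp tissue. All 7 dendritic cell markers were higher, with sums of 117 TPM in KO and 26.0 TPM in WT polyps, and of 16.1 TPM in KO and 17.0 TPM in WT non-polyp tissue. Of 9 monocyte and macrophage markers 3 were higher and none lower, with sums of 2536 TPM in KO and 671 TPM in WT polyps, and of 448 TPM in KO and 503 TPM in WT non-polyp tissue. Lyz2 alone gave 2095 TPM of this sum in KO and 341 TPM in WT polyps, and the other 8 markers summed to 441 TPM in KO and 330 TPM in WT polyps. All 6 smooth muscle markers were also higher in KO polyps (median log2 ratio 2.30), with sums of 1508 TPM in KO and 392 TPM in WT polyps. No marker of these 5 lists was at 0 in either polyp library. Of 7 innate lymphoid and NK markers 2 were higher and none was lower, with sums of 166 TPM in KO and 167 TPM in WT polyps. Id2 alone gave 108 TPM in KO and 156 TPM in WT polyps. The other 6 of that list summed to 57.8 TPM in KO and 11.3 TPM in WT polyps. Cd79a, part of the B cell receptor complex, was at 345 TPM in KO and 10.2 TPM in WT polyps, and Cr2, which binds complement on mature B cells, was at 125 TPM in KO and 1.96 TPM in WT polyps. In pooled bulk tissue, a different number of cells of a type and a different amount of RNA per cell cannot be told apart, and the part of these cell types in the receptor differences was not tested.

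**Figure D3:**
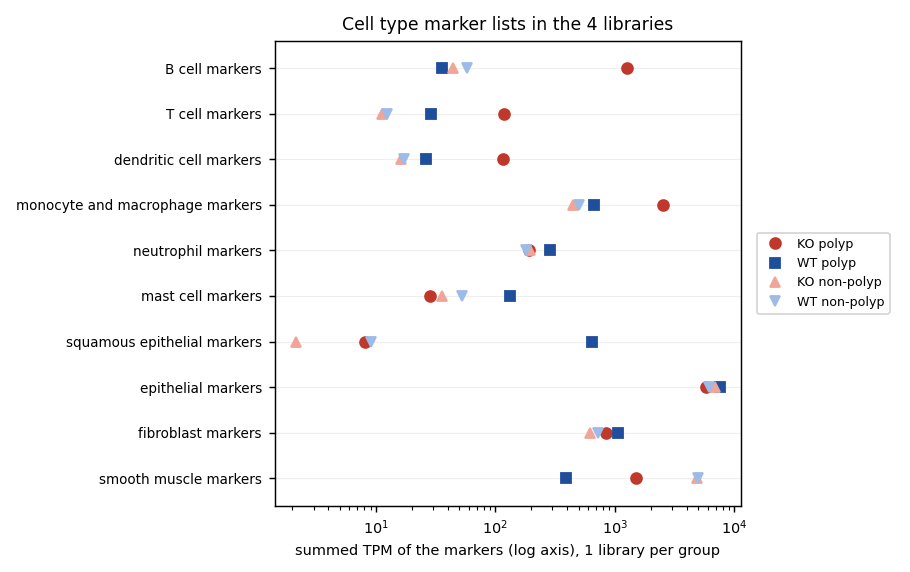
Summed TPM of each cell type marker list (log axis), with 1 point per library. The KO polyp point stands to the right of the other 3 for B cell (1256 TPM), T cell (118 TPM), dendritic cell (117 TPM) and monocyte and macrophage markers (2536 TPM, of which 2095 TPM are Lyz2), and the WT polyp point does so for squamous epithelial (649 TPM) and mast cell markers (132 TPM).

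Outside the common gamma chain group, Il16 and Il4i1 had the highest log2 ratios between the polyps (3.51 each). Il4i1, an amino acid oxidase of B cells and myeloid cells that was first found as an IL-4-induced gene, was at 44.9 TPM in KO and 3.04 TPM in WT polyps, and at 3.64 TPM in KO and 3.77 TPM in WT non-polyp tissue. Its annotated exons share 3423 bases with Tbc1d17 on the opposite strand, and Tbc1d17 was at 49.0 TPM in KO and 32.4 TPM in WT polyps, a much smaller difference. Il16, a CD4-binding chemoattractant expressed by lymphocytes, was at 40.4 TPM in KO and 2.63 TPM in WT polyps, and at 1.38 TPM in KO and 4.07 TPM in WT non-polyp tissue. KO tissue thus had the highest and the lowest of its 4 levels, and with coverage the log2 ratio between the polyps was 2.84. Il16 shares 1202 exonic bases with Stard5 on the opposite strand, which was at 41.5 TPM in KO and 17.3 TPM in WT polyps, and whether strand was used in counting was not given in the sources used here.

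Il10ra, the ligand-binding chain for the anti-inflammatory cytokine IL-10, was at 40.2 TPM in KO and 9.24 TPM in WT polyps, and at 4.56 TPM in KO and 5.14 TPM in WT non-polyp tissue (log2 ratio 2.01 between the polyps). Il10 itself was at 0.474 TPM in KO and 0.258 TPM in WT polyps, and none of the 4 IL-10 family ligands taken here reached 1 TPM in any library. The other 2 chains of this group did not pass the threshold: Il20rb, a chain used by IL-19, IL-20 and IL-24, was at 6.04 TPM in KO and 3.79 TPM in WT polyps, an order that turned round with mean read coverage (log2 ratios of 0.56 with TPM and -0.48 with coverage), and Il20ra was at 0.198 TPM in KO and 1.31 TPM in WT polyps.

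Among the IL-6 and IL-12 families, ligands moved in both directions, with 1 of 6 higher and 2 lower in KO polyps. Il11, a gp130 cytokine made by stromal cells, had the lowest log2 ratio of the 70 genes (-3.42). It was at 0.890 TPM in KO and 19.2 TPM in WT polyps, and at 0.825 TPM in KO and 0.680 TPM in WT non-polyp tissue. WT polyps alone were thus high, 21.5-fold above KO polyps and 28.2-fold above WT non-polyp tissue. Of 6 fibroblast markers 1 was higher and 1 lower in KO polyps, with sums of 838 TPM in KO and 1052.5 TPM in WT polyps. The part of stromal cells in the Il11 difference was not tested. Il6 was at 0.0689 TPM in KO and 1.65 TPM in WT polyps, at 0.0720 TPM in KO non-polyp tissue, and listed at 0 in WT non-polyp tissue. Like Il11 it was highest in WT polyps, but at a far lower level, and its call was lost with mean read coverage (-0.87). Il12a, which encodes the p35 subunit shared by IL-12 and IL-35, went the other way, at 6.16 TPM in KO and 0.350 TPM in WT polyps, and at 0.463 TPM in KO and 0.401 TPM in WT non-polyp tissue. Its possible partners Il12b and Ebi3 did not pass the threshold, with Il12b at 0.926 TPM in KO and 0.472 TPM in WT polyps and Ebi3 at 7.12 TPM in KO and 4.04 TPM in WT polyps.

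Of the 8 receptor chains of these families, 3 were higher in KO polyps and none was lower. Il27ra, the IL-27 receptor chain of lymphocytes, was at 19.2 TPM in KO and 1.49 TPM in WT polyps, and at 1.24 TPM in KO and 1.34 TPM in WT non-polyp tissue. Il6ra was at 8.11 TPM in KO and 2.71 TPM in WT polyps, and at 4.22 TPM in KO and 5.11 TPM in WT non-polyp tissue. Il12rb1, shared by the IL-12 and IL-23 receptors, was at 2.005 TPM in KO and 0.409 TPM in WT polyps, with 0.255 TPM in KO and 0.331 TPM in WT non-polyp tissue. The first stood out in KO polyps, while for Il6ra both non-polyp libraries lay between the polyps. Il11ra1, the chain that binds IL-11, did not pass the threshold between the genotypes, at 13.0 TPM in KO and 9.27 TPM in WT polyps, and was lower in polyps of each genotype than in its non-polyp tissue, which was at 37.2 TPM in KO and 35.3 TPM in WT mice. Il6st, the gp130 chain, was at 40.6 TPM in KO and 31.5 TPM in WT polyps, and at 25.9 TPM in KO and 28.4 TPM in WT non-polyp tissue. The large difference in Il11 was thus not matched by one in either chain of its receptor.

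In the IL-1 family, 3 of 8 ligands and antagonists and 2 of 7 receptor chains were lower in KO polyps and none was higher. Il1b, a main inflammatory product of myeloid cells, was at 9.14 TPM in KO and 68.1 TPM in WT polyps, and at 3.12 TPM in KO and 3.85 TPM in WT non-polyp tissue (log2 ratio -2.77 between the polyps). Both polyp libraries lay above both non-polyp libraries, and WT polyps lay far above KO polyps. Il1a, which encodes IL-1 alpha and lies beside Il1b on chromosome 2, was at 3.86 TPM in KO and 5.31 TPM in WT polyps, and at 0.463 TPM in KO and 0.511 TPM in WT non-polyp tissue, a difference between polyps that did not pass the threshold. Il1rn, the antagonist of both, was also short of it, at 77.1 TPM in KO and 96.4 TPM in WT polyps, and at 66.5 TPM in KO and 69.1 TPM in WT non-polyp tissue. As a ratio within a library, Il1rn stood to Il1b at 8.43 in KO polyps and 1.42 in WT polyps, and at 21.3 in KO and 17.9 in WT non-polyp tissue.

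The IL-36 ligands Il1f8 and Il1f9, which are known from squamous epithelium, were listed at 0 in both KO libraries and were at 1.27 and 1.58 TPM in WT polyps and at 0.0931 and 0.0702 TPM in WT non-polyp tissue. Both were thus near 0 outside WT polyps. They lie with Il1f6, Il1f5, Il1f10 and Il1rn in a stretch of 198 kb on chromosome 2 (chr2:24153161-24351494), in which only Il1rn was well expressed in every library. Their receptor chain Il1rl2 was at 4.36 TPM in KO and 3.94 TPM in WT polyps, and at 2.91 TPM in KO and 2.51 TPM in WT non-polyp tissue, with log2 ratios between the polyps of 0.12 from TPM and -0.32 from coverage.

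Il1r2, a decoy receptor of neutrophils and other myeloid cells that binds IL-1 without signalling, was at 0.686 TPM in KO and 6.47 TPM in WT polyps, and at 0.0227 TPM in KO and 0.0465 TPM in WT non-polyp tissue. Il1r1, the signalling receptor, was at 12.6 TPM in KO and 18.2 TPM in WT polyps, and at 12.6 TPM in KO and 9.31 TPM in WT non-polyp tissue. The decoy thus stood to the signalling chain at 0.0546 in KO polyps and 0.356 in WT polyps, but with coverage at 0.0800 in KO and 0.129 in WT polyps. Il1rap, the accessory chain, was at 1.83 TPM in KO and 4.94 TPM in WT polyps, and at 5.05 TPM in KO and 4.37 TPM in WT non-polyp tissue, so KO polyps alone were low. The calls of Il1r2 and Il1rap were lost when the deposited mean read coverage, scaled to a common total, replaced TPM (log2 ratios of -0.52 and -0.04), whereas that of Il1b was kept.

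Markers of other cells also differed between the polyps. Most IL-1 family genes did not pass the threshold there (5 of 8 ligands and antagonists and 5 of 7 receptor chains). In KO polyps 6 of 7 squamous epithelial markers were lower and none was higher, with sums of 8.16 TPM in KO and 649 TPM in WT polyps, and of 2.13 TPM in KO and 9.11 TPM in WT non-polyp tissue, and Krt6a was listed at 0 in KO polyps. Of 8 neutrophil markers 6 were lower and 1 higher, with sums of 192 TPM in KO and 289 TPM in WT polyps, and of 195 TPM in KO and 180 TPM in WT non-polyp tissue. The higher one, Ly6g, gave 172 TPM in KO and 74.0 TPM in WT polyps, and the other 7 summed to 19.5 TPM in KO and 215 TPM in WT polyps. Of 7 mast cell markers 6 were lower and 1 higher, with sums of 28.2 TPM in KO and 132 TPM in WT polyps, and of 35.8 TPM in KO and 52.7 TPM in WT non-polyp tissue, and Ms4a2 and Fcer1a were listed at 0 in both KO libraries. The higher one here was Kit (log2 ratio 1.78), which gave 26.4 of the 28.2 TPM in KO polyps, and the other 6 summed to 1.79 TPM in KO and 125 TPM in WT polyps. S100a9, an abundant neutrophil protein, was at 2.07 TPM in KO and 101 TPM in WT polyps. The part of these cells in the differences of Il1b, Il1r2 and the IL-36 ligands was not tested.

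All 4 IL-17 receptor chains passed the threshold between the polyps, 3 higher and 1 lower in KO. Il17rc, a chain for IL-17A and IL-17F and the most abundant receptor chain of the 34 in both non-polyp libraries, was at 135 TPM in KO and 46.1 TPM in WT polyps, and at 183 TPM in KO and 147 TPM in WT non-polyp tissue. Il17re, the epithelial receptor chain for IL-17C, lies beside it, both within 24.7 kb of chromosome 6, and was at 13.9 TPM in KO and 5.25 TPM in WT polyps, and at 19.9 TPM in KO and 16.5 TPM in WT non-polyp tissue. In both genes WT polyps were the low library, and KO polyps were nearer to non-polyp tissue. Il17ra, the chain shared within the family, was at 20.5 TPM in KO and 8.61 TPM in WT polyps, and at 7.61 TPM in KO and 7.58 TPM in WT non-polyp tissue, so here KO polyps were the high library. Il17rd, an inhibitory member also called Sef, was at 1.21 TPM in KO and 7.86 TPM in WT polyps, and at 0.841 TPM in KO and 3.08 TPM in WT non-polyp tissue. Its call between the polyps was lost with mean read coverage (-0.66).

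IL-17 ligands were scarce. Il17a was listed at 0 in both KO libraries and stood at 0.102 TPM in WT polyps and at 0.0988 TPM in WT non-polyp tissue. Il17f was at 1.03 TPM in KO polyps and listed at 0 in WT polyps, with 0.147 TPM in KO and 1.10 TPM in WT non-polyp tissue. Levels this low cannot carry an order. Il17c, the epithelial ligand of Il17re, was at 0.953 TPM in KO and 1.54 TPM in WT polyps, and in non-polyp tissue it was listed at 0 in KO and at 0.162 TPM in WT mice. Il17d, the most abundant of the family, was at 5.38 TPM in KO and 6.34 TPM in WT polyps, and at 10.8 TPM in KO and 8.74 TPM in WT non-polyp tissue. It did not pass the threshold in any of the 4 comparisons.

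Of the receptors for IL-3, IL-5 and IL-13, 2 of 4 were higher in KO polyps. Il13ra2, the decoy receptor for IL-13, was at 4.67 TPM in KO and 0.583 TPM in WT polyps, and at 0.410 TPM in KO and 0.741 TPM in WT non-polyp tissue. Il13ra1, the signalling chain, was at 46.6 TPM in KO and 31.4 TPM in WT polyps, and at 60.5 TPM in KO and 58.7 TPM in WT non-polyp tissue, so that decoy stood to signalling chain at 0.1002 in KO polyps and 0.0186 in WT polyps. Il5ra, found on eosinophils and some B cells, was at 3.18 TPM in KO and 0.983 TPM in WT polyps, with 0.192 TPM in KO and 0.224 TPM in WT non-polyp tissue. Il3ra was at 12.2 TPM in KO and 15.3 TPM in WT polyps, and at 2.81 TPM in KO and 4.63 TPM in WT non-polyp tissue, a difference by tissue and not past the threshold by genotype. Of their ligands, Il3 was listed at 0 in all 4 libraries, and Il5 and Il13 were at 0.339 TPM or less.

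**Figure D4:**
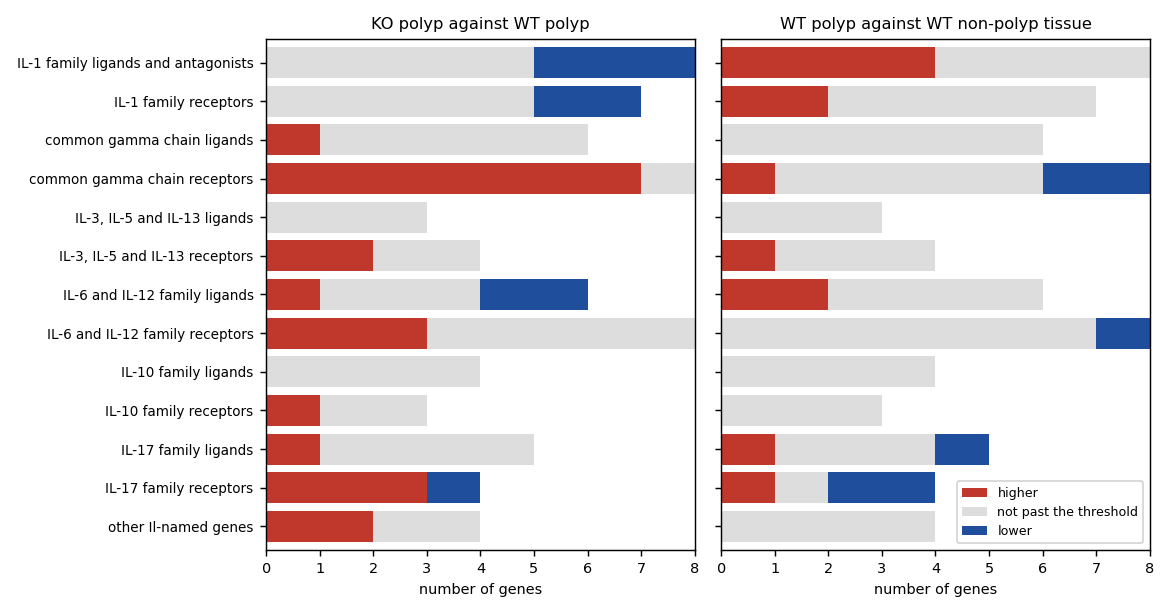
Number of genes in each family higher (red), not past the threshold (grey) or lower (blue), for KO against WT polyps on the left and WT polyps against WT non-polyp tissue on the right. On the left 7 of 8 common gamma chain receptors are red and 3 of 8 IL-1 family ligands are blue, and on the right 4 of 8 IL-1 family ligands are red. Both panels share the WT polyp library.

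In non-polyp tissue few of these genes differed between the genotypes. None of the 70 was higher in KO than in WT non-polyp tissue, where 0.76% of all names were, and 2 were lower (Il16 and Il17rd), where 0.636% were. The log2 ratios were -1.09 for Il16 and -1.15 for Il17rd, and both calls were lost with a pseudocount of 5 TPM (-0.51 and -0.47). Il9r came next at -0.93. All 8 common gamma chain receptors, all 8 IL-1 family ligands and antagonists and all 7 IL-1 family receptors were short of the threshold. Il17rd was lower in KO in both tissues, whereas Il16 was lower in KO non-polyp tissue and higher in KO polyps. As a difference of log2 ratios, polyps minus non-polyp tissue, 19 of the 70 genes were above 1, where 5.22% of all names were, and 7 were below -1, where 4.85% were. The extremes were Il16 (4.60), Il9r (4.51) and Il21r (4.25) above and Il11 (-3.53), Il1b (-2.53) and Il1r2 (-2.11) below. With 4 libraries this difference of differences could not be tested.

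**Figure D5:**
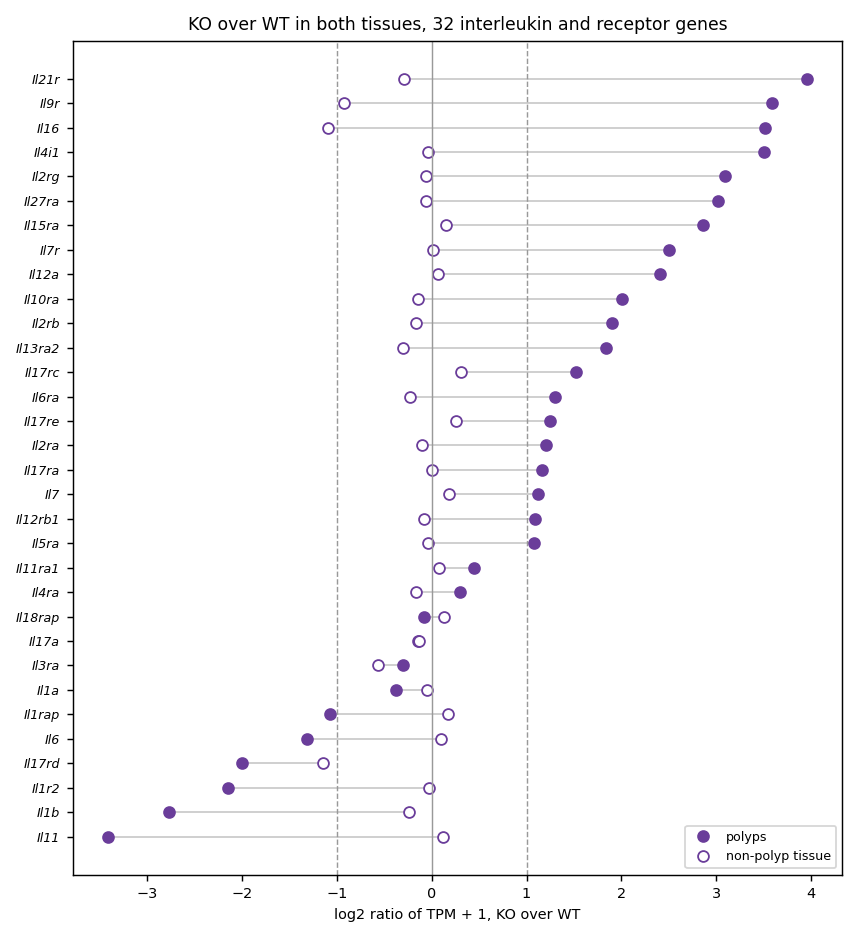
Log2 ratio of TPM + 1, KO over WT, for 32 genes in polyps (filled) and in non-polyp tissue (open), joined by a line for each gene and ordered by the value in polyps. Filled points run from 3.96 (Il21r) to -3.42 (Il11), and all open points but those of Il16 and Il17rd lie between the dashed lines at -1 and 1.

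Polyps were then compared with non-polyp tissue of the same genotype. In WT mice, 12 of the 70 genes were higher in polyps, where 5.17% of all names were, and 6 were lower, where 3.67% were. The 12 were Il1a, Il1b, Il1f8, Il1f9, Il1r2, Il18rap, Il17c, Il17rd, Il3ra, Il4ra, Il6 and Il11, and Il1b (log2 ratio 3.83) and Il11 (3.59) led them. The 6 lower genes were Il15ra, Il11ra1, Il17rc, Il17re, Il9r and Il17f, led by Il15ra (-2.77). With a pseudocount of 5 TPM, 5 of the 12 higher calls remained (Il1b, Il1r2, Il3ra, Il4ra and Il11), and with mean read coverage the calls of Il1r2 (0.99), Il17rd (0.61), Il11ra1 (-0.70) and Il17f were lost. In this comparison the median of all genes at 5 TPM or more was itself 0.20. In KO mice, 20 were higher in polyps, where 3.29% of all names were, and 2 (Il1rap and Il11ra1) were lower, where 0.989% were. Il16 (4.12), Il21r (3.98) and Il2rg (3.79) led the higher ones, and 13 of the 20 remained with a pseudocount of 5 TPM, without Il1a, Il1b, Il2ra, Il5ra, Il12rb1, Il13ra2 and Il18rap.

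These last comparisons share no library. The genes Il1a, Il1b, Il3ra, Il4ra and Il18rap were higher in polyps of both genotypes, which makes 5 of the 20 (25.0%) in KO and 5 of the 12 (41.7%) in WT mice, and Il11ra1 was lower in both. Over all names, 384 were higher in polyps of both genotypes, 21.4% of those higher in KO and 13.6% of those higher in WT mice. Il18rap, the accessory chain of the IL-18 receptor, was at 2.03 TPM in KO and 2.19 TPM in WT polyps, and at 0.426 TPM in KO and 0.305 TPM in WT non-polyp tissue. For Il1b the log2 ratio of polyps over non-polyp tissue was 1.30 in KO and 3.83 in WT mice, and for Il4ra it was 1.86 in KO and 1.39 in WT mice. Smooth muscle markers differed by tissue in both genotypes, all 6 being lower in polyps, with sums of 1508 TPM in KO polyps and 4838 TPM in KO non-polyp tissue, and of 392 TPM in WT polyps and 4992 TPM in WT non-polyp tissue. Their part in the differences between tissues was not tested.

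Most genes that act just downstream of the receptors were short of the threshold. Of 25 genes of receptor-proximal signalling, 3 were higher and 1 lower in KO polyps (median log2 ratio 0.36). Stat4, the STAT of the IL-12 receptor in T cells, was at 7.94 TPM in KO and 0.994 TPM in WT polyps. Irak3, a brake on IL-1 receptor signalling, was at 9.75 TPM in KO and 1.01 TPM in WT polyps, and Socs2, an inhibitor induced by JAK and STAT signalling, was at 42.7 TPM in KO and 11.1 TPM in WT polyps. Socs3, which is induced by gp130 cytokines and restrains them, was at 25.9 TPM in KO and 68.1 TPM in WT polyps, with 14.2 TPM in KO and 14.6 TPM in WT non-polyp tissue. Socs3 was thus highest in WT polyps, like Il11 and Il1b. The kinases Jak1, Jak2, Jak3 and Tyk2 did not pass the threshold.

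Among 18 related cytokines and receptors that carry other symbols, KO polyps had 5 higher and 2 lower. Csf2rb, the beta chain for IL-3, IL-5 and GM-CSF, was at 33.5 TPM in KO and 8.62 TPM in WT polyps. Clcf1, a gp130 cytokine, was at 46.6 TPM in KO and 17.6 TPM in WT polyps, whereas Csf3r, the G-CSF receptor of neutrophils and also one of the neutrophil markers above, was at 3.91 TPM in KO and 11.1 TPM in WT polyps. Of 12 genes of IL-1 processing, 4 were higher in KO polyps and none was lower. Nlrp6, an inflammasome receptor of intestinal epithelium, was at 75.8 TPM in KO and 9.31 TPM in WT polyps, and at 106 TPM in KO and 98.6 TPM in WT non-polyp tissue, and Casp1, the protease that matures IL-1 beta, was at 165 TPM in KO and 72.2 TPM in WT polyps, and at 191 TPM in KO and 173 TPM in WT non-polyp tissue. For both genes WT polyps were the low library, as for Il15ra and Il17rc. The other 2 were Mefv (log2 ratio 1.56) and Pycard (1.01), and the remaining 8 of the list, Nlrp3 and Casp8 among them, did not pass the threshold.

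Most of the remaining genes were at low levels. Il1f5, Il1f10, Il1rapl2, Il9, Il3, Il19, Il20 and Il31 were listed at 0 in all 4 libraries, and Il1f6, Il1rapl1, Il11ra2 and Il31ra were above 0 in 1 library each and there at 0.131 TPM or less. Il12rb2, Il17b, Il24, Il27 and Il1bos were at 0.890 TPM or less in each library. Il34, a ligand of the macrophage receptor encoded by Csf1r, was the remaining expressed gene, at 22.4 TPM in KO and 14.6 TPM in WT polyps, and at 12.7 TPM in KO and 14.3 TPM in WT non-polyp tissue, and passed the threshold in none of the 4 comparisons. Il11ra1 has near-identical copies such as Il11ra2, so reads could be split between them.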

How the data were processed

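RNA-seq of 4 pooled libraries was used as deposited. Per the labels and the study's methods, reads had passed through Trimmomatic, HISAT2 (mouse genome GRCm38, mm10) and StringTie before deposit; versions, annotation release and strand setting are not given in the sources used here. The authors deposited TPM for every gene, and in 3 of 4 tables also FPKM and per-base coverage, a signal value. In these 3 tables assembled loci, which alone sum to 1e+06 TPM, stand beside the annotated genes, whose TPM sum to between 860905 and 906199 in the 4 tables; only annotated genes were used. The table of KO non-polyp tissue also holds a deposited ratio to Gapdh, which was not used. The labels and the methods name different library kits and different numbers of pooled WT mice. In each of the 3 tables, 27 symbols that a spreadsheet had turned into dates were restored by gene ID.

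Values were summed per gene name and compared as log2(TPM + 1), with the study's threshold of 1, in Python 3.11.15 (pandas 2.3.3, numpy 2.4.6, matplotlib 3.10.9). The calculation was tested on simulated data, with changes past the threshold planted in genes at 5 TPM or more. This checks the code alone, and not genes at low levels or the spread between libraries. A gene was described singly where it reached 2 TPM and passed the threshold in 1 comparison, where it is a partner of such a gene or where the study names it; of the other lists, up to 4 genes at 5 TPM or more with the largest polyp ratio were taken. Ebi3, Jak1, Jak2, Jak3, Tyk2, Ly6g, Lyz2, Kit, Casp8 and Nlrp3 were added after their values were seen. Alternatives were other pseudocounts, a 5 TPM minimum, other scalings, FPKM and, added after seeing the data, coverage and a mean of 1 TPM. The genes, families and marker lists were chosen with earlier results of these data known.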

Additional observations from a re-analysis of the deposited data

Results flagged for a closer look

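Il16 went in opposite directions by genotype in the 2 tissues: its log2 ratio of KO over WT was 3.51 in polyps and -1.09 in non-polyp tissue. The value in non-polyp tissue rests on 1.38 TPM in KO and 4.07 TPM in WT libraries, and it fell short of the threshold with a pseudocount of 5 TPM (-0.51). Il9r went in opposite directions by tissue in the 2 genotypes: its log2 ratio of polyps over non-polyp tissue was 3.22 in KO and -1.29 in WT mice, the second from 0.600 TPM in polyps and 2.91 TPM in non-polyp tissue. Neither difference was tested, because each group has 1 library.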

How the results depend on the processing

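No called difference changed direction under the alternatives that were run. Below the threshold, up to 9 genes per comparison changed sign with other scalings, and coverage turned 5 for KO against WT polyps, among them Il20rb (-0.48), Il1rl2 (-0.32) and Il15 (0.36), and 2 for WT polyps against WT non-polyp tissue, Il1rap (-0.07) and Il17ra (-0.05). In KO against WT polyps 14 of the named genes passed the threshold in all 11 alternatives: Il10ra, Il11, Il12a, Il15ra, Il16, Il17rc, Il1b, Il21r, Il27ra, Il2rb, Il2rg, Il4i1, Il7r and Il9r. Among the 11, the 5 TPM minimum and the mean of 1 TPM only leave genes out and change no ratio. Taking the highest entry per gene name changed no call. These alternatives therefore add no check of the ratios. A pseudocount of 0.1 TPM gave 3 genes higher and 7 lower in KO non-polyp tissue. A pseudocount of 5 TPM gave 12 higher and 4 lower for KO against WT polyps, 0 lower in KO non-polyp tissue, 5 higher in WT polyps against WT non-polyp tissue, 13 higher and 1 lower in KO polyps against KO non-polyp tissue, and tissue differences above 1 for 12 genes and below -1 for 3. With 5 TPM required in the higher library, 4 were lower for KO against WT polyps, 0 lower in KO non-polyp tissue, 7 higher in WT polyps against WT non-polyp tissue and 4 differences were below -1. FPKM gave 4 lower for KO against WT polyps and 6 higher in WT polyps against WT non-polyp tissue. Coverage gave 5 lower for KO against WT polyps, an Il1rn to Il1b ratio of 5.37 in KO polyps, 0.865 in WT polyps and 8.41 in WT non-polyp tissue, and an Il1r2 to Il1r1 ratio of 0.129 in WT polyps. Restricting to a mean of 1 TPM gave 5 lower for KO against WT polyps and 4 differences below -1. Both of the last settings were chosen after seeing the data, and the cause of these shifts was not tested. No paired analysis was possible because each group has 1 library, which also leaves no replicate to leave out. Levels under about 1 TPM are limited by a read depth that is unknown here.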
